A study of Mus musculus with 112 samples.

Results

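The genes described here mark the 2-cell-like state (2C-like state), a rare condition of mouse embryonic stem cells (ESCs) in which transcripts of the cleavage embryo appear. They were chosen by name as Zscan4a, Zscan4c, Zscan4d, Zscan4f, Zfp352, Tcstv1, Tcstv3, Trim43a and Usp17le, so 9 of the 25209 genes in the count tables were members, and each was followed in every library. Zscan4 genes encode SCAN-domain zinc-finger proteins that are transcribed in bursts at the 2-cell stage and in a small share of ESCs, where they are known for telomere extension and genome upkeep. Zfp352 encodes another zinc-finger protein of the early embryo, Usp17le belongs to a family of deubiquitinases, Trim43a to the tripartite-motif family of ubiquitin ligases, and Tcstv1 and Tcstv3 are short genes named for their transcription at the 2-cell stage. The factor Dux switches much of this program on, and chromatin repressors, LSD1 among them, are known to keep it off.

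RNA was measured in 34 groups of 2 to 11 libraries that differed in the histone demethylase LSD1 (gene Kdm1a), in its CoREST partners RCOR1 and RCOR2, or in the histone methyltransferase MLL4 (gene Kmt2d). Cells were naive ESCs grown with 2i inhibitors and LIF, cells kept in serum (FBS) for 4 days without them, epiblast-like cells (EpiLCs) made over 2 days, or embryoid bodies (EBs) grown in hanging drops for 6 days. The genotypes in ESCs were wild type (WT), LSD1KO, LSD1CI (catalytically inactive LSD1), RCOR1KO, RCOR2KO, RCOR12DKO (both RCOR genes lost), MLL4KO, MLL4LSD1DKO and MLL4KO_LSD1CI, and the first 6 of them were also made into EBs. WT, LSD1KO and LSD1CI cells in serum and as EpiLCs carried the solvent DMSO, as did WT and LSD1KO EBs and LSD1KO ESCs of the treatment experiment, and LSD1KO cells of all 4 kinds also received A485, an inhibitor of the acetyltransferases P300 and CBP. DKO_LSD1 (RCOR12DKO cells) and LSD1Res (LSD1KO cells) carried an LSD1 gene switched on by doxycycline (DOX), and LSD1KO cells with and without DOX served beside them. Per the study's methods, libraries came from a pair of independent clones, so libraries of groups larger than a pair share clones, and n counts libraries rather than clones. The labels do not say which library came from which clone. Some libraries stood closer to each other than to the rest of their group: in LSD1CI ESCs the mean chi-square per gene between libraries was 8.51 for replicates 1 and 3 and 8.03 for 2 and 4 but 32.4 to 40.1 for the other pairs, and in RCOR2KO ESCs it was 6.34 and 4.98 for the same pairs but 24.9 to 27.4 for the others. P-values therefore measure the spread between these libraries and may be too small where clones differ.

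Depth ran from 17.2 to 58.2 M counts (median 39 M). Of the targeted genes, Kdm1a in LSD1KO cells fell by 4.93 ± 0.16 (SE) on the log2 scale in ESCs and fell by 6.99 in serum, and Rcor1 fell by 2.76 in RCOR1KO ESCs. Rcor2 fell by 5.09 in RCOR2KO ESCs but in RCOR2KO EBs fell by 1.52, to 44.6 and 53.8 CPM, against 2.19 to 5.30 CPM in RCOR12DKO EBs and 121 to 153 in WT EBs. Kmt2d fell by 1.07 in MLL4KO and fell by 1.35 in MLL4LSD1DKO. Its differences of −0.67 in MLL4KO_LSD1CI and −0.81 in LSD1KO ESCs, where it was not targeted, missed the fold-change threshold (adjusted p = 0.000516 and 0.000132, edgeR). In MLL4KO_LSD1CI, replicates 1 and 2 had 197 and 211 CPM, below every WT ESC library (at least 307), and replicates 3 and 4 had 344 and 398. Its transcript level thus did not mark all MLL4KO_LSD1CI libraries. Naive ESC markers (7 of 7 at or above 1 CPM, the count scaled to the library total, in every group) summed to 1450 to 4628 CPM in ESCs and to 47.7 to 1322 CPM in EBs. In 9 libraries, namely WT ESC replicates 1 to 3 and all 6 untreated LSD1KO ESCs, 101 genes found solely on unplaced contigs were at 0, against 4241 to 18289 counts in each of the other 103. These 9 appear to have been aligned to a reference without those contigs, and the ESC fits carried a term for it, so that LSD1KO was in effect compared with WT 1 to 3 and every other mutant with WT 4 to 11. Tcstv1 and Tcstv3 lie on such a contig, and they are left out of the comparisons that rest on those 9 libraries. Tcstv1 had 0 counts in every library, so 8 members could be described.

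The 4 Zscan4 copies lie on chromosome 7 of mm9, Zscan4a at chr7:11379590-11384414 and Zscan4d at chr7:11746992-11751497 on the minus strand, Zscan4c at chr7:11591094-11595896 and Zscan4f at chr7:11983264-11987667 on the plus strand. The 150 bases that end just past their shared TATA word are shown because they hold the TATA word next to the starts and show how little the copies differ. Capitals mark the 9 positions at which the 4 copies are not all the same, and the other 141 are identical in all.
Zscan4a, chr7:11384441-11384590, minus strand: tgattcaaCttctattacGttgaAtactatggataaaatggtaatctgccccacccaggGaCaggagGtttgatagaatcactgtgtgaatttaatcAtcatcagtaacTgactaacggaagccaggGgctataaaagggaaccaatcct
Zscan4c, chr7:11590910-11591059, plus strand: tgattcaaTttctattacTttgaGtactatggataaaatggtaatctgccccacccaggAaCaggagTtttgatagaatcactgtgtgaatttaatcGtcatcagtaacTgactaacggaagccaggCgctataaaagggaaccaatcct
Zscan4d, chr7:11751543-11751692, minus strand: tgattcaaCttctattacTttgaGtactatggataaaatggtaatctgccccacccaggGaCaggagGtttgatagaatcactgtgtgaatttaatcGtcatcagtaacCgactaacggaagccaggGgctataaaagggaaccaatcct
Zscan4f, chr7:11983103-11983252, plus strand: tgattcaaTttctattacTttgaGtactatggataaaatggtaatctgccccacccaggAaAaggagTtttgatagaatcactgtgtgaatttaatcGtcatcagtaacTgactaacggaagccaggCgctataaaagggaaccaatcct

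Zscan4c and Zscan4f differed at 1 of the 150 bases, Zscan4a and Zscan4d at 4, and Zscan4a and Zscan4f at 8. The word tataaaag begins 46, 54, 65 and 31 bases before the annotated starts of Zscan4a, Zscan4c, Zscan4d and Zscan4f. The transcripts themselves were also alike. Of all 150-base windows of exonic sequence, the length of a read, 77.8% of Zscan4a, 47.2% of Zscan4c, 85.4% of Zscan4d and 37.6% of Zscan4f occurred in no other copy, and 44.9% of Zscan4c windows were also in Zscan4f. Values of a single copy, of Zscan4c and Zscan4f above all, are therefore uncertain, and the sum of the 4 copies is the main measure. Counts of members called still hold each copy as its own member. The copies share sequence and can fill up to 4 places in such a count, so these counts are not of separate genes.

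The 120 bases before the starts of the other members on the assembled chromosomes are shown to set them beside the Zscan4 copies, with TATAA in capitals where it occurs. Usp17le lies at chr7:111916563-111925984 on the minus strand, Zfp352 at chr4:89885511-89892378 and Trim43a at chr9:88475729-88483662 on the plus strand.
Usp17le, chr7:111925985-111926104, minus strand: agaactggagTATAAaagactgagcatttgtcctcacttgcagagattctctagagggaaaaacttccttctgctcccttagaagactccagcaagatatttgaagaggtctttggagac
Zfp352, chr4:89885391-89885510, plus strand: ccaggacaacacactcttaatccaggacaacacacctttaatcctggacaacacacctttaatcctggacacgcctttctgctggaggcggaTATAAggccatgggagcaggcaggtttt
Trim43a, chr9:88475609-88475728, plus strand: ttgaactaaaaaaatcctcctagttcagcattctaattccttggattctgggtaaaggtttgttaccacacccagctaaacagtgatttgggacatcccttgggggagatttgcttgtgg

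TATAA was searched on the strand of the gene from 250 bases before to 50 bases after the start and was found in 6 of the 7 members searched, all but Trim43a. It occurred in 5763 of 32851 RefSeq promoters of that length (17.5%, build GRCm38.p6), and in 8171 (24.9%) when either strand was searched. Of the 6 members with it, 4 are the Zscan4 copies, identical at 141 of the 150 bases shown above. They do not count as separate promoters beside these shares. A match in these letters is a description only. Of the windows of Trim43a 97.2% were absent from Trim43b and Trim43c, and of those of Usp17le 99.3% from its 4 relatives, so these members were counted largely apart from their kin.

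Levels between genes were set on counts scaled by exonic length and depth (RPKM). In LSD1KO cells in serum the means were 90.7 RPKM for Zscan4d, 64.0 for Zscan4a, 54.7 for Zscan4c, 41.4 for Zscan4f, 38.6 for Usp17le, 20.2 for Tcstv3, 2.28 for Zfp352 and 0.332 for Trim43a. In untreated LSD1KO ESCs the order was turned, with Trim43a at 18 RPKM and each Zscan4 copy between 0.357 and 0.602. So wide a gap was not seen in LSD1KO ESCs in DMSO. There Trim43a was at 3.44 and 3.60 CPM and Zscan4a, of similar length, at 3.58 and 2.63 CPM. EBs of RCOR12DKO again held little Trim43a (0.262 RPKM) beside 10.7 to 14.3 RPKM of each Zscan4 copy. In bulk RNA, more cells in the state and more transcript per cell cannot be told apart.

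Summed over the 4 copies, Zscan4 spanned a range of 11742-fold between the highest group and the lowest group with a count. Cells in serum stood at the top. LSD1KO had 580.3 and 470.6 CPM (mean 525.5 ± 77.6, SD, n = 2) and LSD1CI 449.9 and 295.9 CPM (372.9 ± 109), whereas WT serum cells had 48.7 and 10.9 CPM. The next groups were LSD1Res ESCs without DOX (110 ± 119 CPM, n = 4) and RCOR12DKO EBs (101 ± 19.2, n = 4). WT ESCs held 0.979 ± 1.08 CPM (n = 11) and WT EBs 0.0448 ± 0.0777 (n = 7, 12 counts in all), and WT EBs in DMSO, MLL4KO ESCs and MLL4LSD1DKO ESCs had no Zscan4 count in any library. Of the 33 pairs of neighbours in this order, 3 did not overlap. These were LSD1KO over LSD1CI in serum, LSD1CI in serum over LSD1Res without DOX, and LSD1KO EBs in DMSO over DKO_LSD1 without DOX. Most neighbouring groups thus overlapped, and a lack of overlap between so few libraries does not show a difference. LSD1KO and LSD1CI in serum, with nearest libraries at 470.6 and 449.9 CPM, were not called different in the sum when tested.

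**Figure D1:**
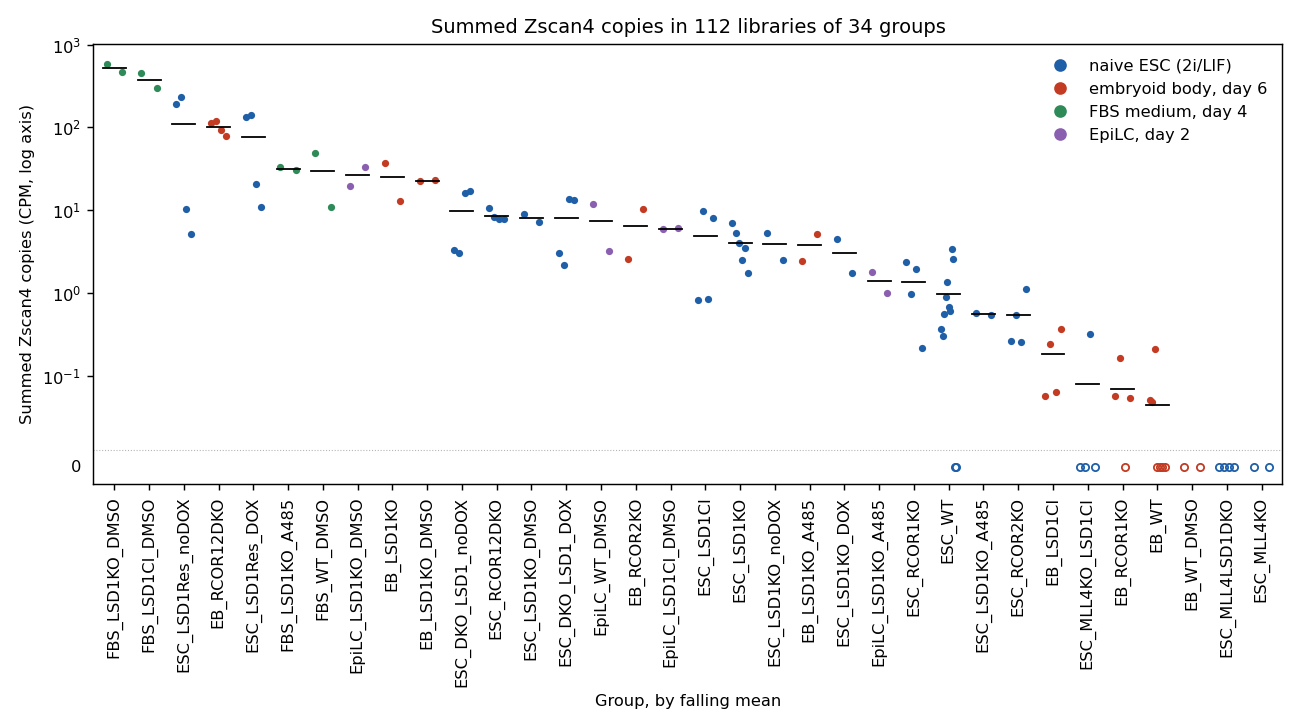
Summed counts of Zscan4a, Zscan4c, Zscan4d and Zscan4f (CPM, log axis) in every library of the 34 groups, ordered by group mean. Each point is a library, black bars are group means and open circles at the bottom are libraries with no count. LSD1KO and LSD1CI cells in serum stand highest, at 295.9 to 580.3 CPM.

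In the 24 groups with at least 200 Zscan4 counts, the share of the sum taken by each copy varied less than the sum itself. Zscan4a took 8.77% to 42.6% (median 27.9%), Zscan4c 19.2% to 34.4%, Zscan4d 15.9% to 35.7% and Zscan4f 12.9% to 30.04%. No copy carried the sum alone in any of these groups.

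WT ESCs were not alike. Zscan4 sums were 0.412 ± 0.138 CPM (SD, n = 3) in WT 1 to 3 and 1.59 ± 1.15 (n = 6) in WT 4 to 9, while WT 10 and 11, the shallowest WT ESC libraries, had 0. Usp17le reached at most 0.316 CPM and Zfp352 at most 0.173 in any WT ESC library, and Trim43a ran from 0 to 0.463 CPM. From WT ESCs to WT EBs the Zscan4 sum fell by 4.81 ± 1.05 on the log2 scale (SE, adjusted p = 0.000442, edgeR quasi-likelihood test with Benjamini-Hochberg adjustment), although the libraries overlapped. In that fit 35.4% of all genes tested were called at an adjusted p below 0.01 and a log2 fold change above 1 in either direction, the rule used throughout, and no single member passed its filter on low counts.

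The serum comparison asks how LSD1 loss and loss of its catalysis compare once cells leave the naive medium. Every member with counts in serum stood higher in LSD1KO than in WT cells. Zfp352 was at 5.72 and 4.6 CPM in LSD1KO, 9.18 and 7.90 in LSD1CI, and 0.713 and 0.231 in WT cells. It rose by 3.46 ± 0.45 in LSD1KO (adjusted p = 0.000207, edgeR) and by 4.22 ± 0.45 in LSD1CI (adjusted p = 0.000174), with no overlap between mutant and WT libraries. Usp17le was at 71.3 and 74.1 CPM in LSD1KO, 51.2 and 42.1 in LSD1CI and 7.0 and 2.15 in WT cells. It rose in LSD1KO by 3.99 ± 0.52 (adjusted p = 0.00458), and in LSD1CI its difference of 3.39 ± 0.52 missed the threshold (adjusted p = 0.0145). Tcstv3 followed the same order of levels, with 17.2 and 18.2 CPM in LSD1KO, 15.2 and 13.5 in LSD1CI and 2.88 and 0.577 in WT, and neither difference was called.

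The Zscan4 sum differed from WT by 4.13 ± 0.82 in LSD1KO (adjusted p = 0.0232, edgeR) and by 3.67 ± 0.81 in LSD1CI (adjusted p = 0.0499), with no overlap of libraries but without a call. DESeq2 on the same counts called both (adjusted p = 8.15e-08 and 5.37e-06). In all, 2 of 8 members tested were called in LSD1KO, against 9.55% of all genes, and 1 of 8 in LSD1CI, against 2.99%. DESeq2 called 7 of 8 in each. Without either LSD1KO library Usp17le lost its edgeR call (adjusted p = 0.0345 and 0.0252), as it did with only the groups compared in the fit (adjusted p = 0.0506), and Zfp352 did not. LSD1KO and LSD1CI were then set against each other, a contrast added after the data had been seen. There edgeR and DESeq2 called 0 of 8 members (1 at an unadjusted p under 0.05), against 2.48% of all genes, and the Zscan4 sums differed by 0.45 ± 0.71. Trim43a stood apart from the others: it was at 1.00 and 0.316 CPM in LSD1KO, at 0 in both LSD1CI libraries, and at 0.0509 and 0.0462 in WT cells. LSD1KO was at least 20.4-fold above LSD1CI when 3 counts were set as the floor of the LSD1CI group (adjusted p = 0.0115, not called).

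Other genes of the cleavage stage were counted from a list of 45 in the files, of which 36 were tested in serum. In LSD1KO 25 rose and 0 fell, with a median log2 difference of 3.65 beside a median near 0 for all genes, and in LSD1CI 18 rose and 0 fell (median 3.56). Dux rose by 5.03 ± 0.66 in LSD1KO (adjusted p = 0.000875, edgeR) and differed by 3.40 ± 0.66 in LSD1CI (adjusted p = 0.0114). Markers of other cell types moved as well. The 4 trophoblast markers summed to 6.28 to 6.37 CPM in WT, 59.9 to 74.6 in LSD1KO and 63.8 to 105 in LSD1CI, and the 4 oocyte markers to 0.280 to 0.554, 4.68 to 6.50 and 1.23 to 2.15 CPM, with Oosp1 at 0 throughout. Bmp15 was also at 0 in WT and LSD1KO. Only 1 oocyte marker had a mean of at least 1 CPM in LSD1KO and in LSD1CI, and 0 did in WT. The oocyte sum thus rests largely on 1 gene. The part of these markers in the result was not tested.

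In EBs the members were nearly absent from WT and abundant without LSD1. Zscan4 sums were 36.9 and 13.1 CPM in the 2 LSD1KO libraries and 0 to 0.212 CPM in the 7 WT libraries, so the groups did not overlap. The sum rose by 9.01 ± 0.61 on the log2 scale (adjusted p = 3.37e-09, edgeR). Of the 8 members tested 7 rose, against 13.7% of all genes called. Usp17le, at 5.0 and 2.09 CPM against at most 0.0608 in WT, rose by 6.73 ± 0.56. Tcstv3, at 1.06 and 0.565 CPM against at most 0.106, rose by 3.86 ± 0.90 (adjusted p = 0.00213). Zfp352 had 0.749 and 0.393 CPM and no count in any WT library, a rise of at least 50.05-fold (adjusted p = 0.00052). Without replicate 1 of LSD1KO, Tcstv3 lost its call (3.35, adjusted p = 0.0366), and with only the groups compared in the fit Zfp352 did (adjusted p = 0.0124).

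Trim43a was the member that did not follow. It was at 0.484 and 0.197 CPM in LSD1KO EBs and at 1.03, 0.565 and 1.14 CPM in WT 1 to 3 but only 0.112 to 0.123 in WT 4 to 7, and its difference of −0.40 ± 0.98 was not called.

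LSD1CI EBs gave a different picture. Their Zscan4 sums were 0.0582, 0.245, 0.0646 and 0.369 CPM, overlapping WT, and edgeR and DESeq2 called 0 of 8 members (2 at an unadjusted p under 0.05), against 2.55% of all genes. Set directly against LSD1CI in a contrast added after the data had been seen, LSD1KO EBs were higher in the Zscan4 sum by 7.01 ± 0.66 (adjusted p = 5.16e-07, edgeR). All 4 Zscan4 copies and Usp17le were called in this contrast, 5 of 8 members against 11.4% of all genes.

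The CoREST partners were compared to see which of them the members respond to. RCOR1KO EBs held no Usp17le or Zfp352 count in any of 4 libraries and a mean Zscan4 sum of 0.0697 CPM, and edgeR and DESeq2 called 0 of 8 members (2 at an unadjusted p under 0.05), against 0.00558% of all genes. RCOR2KO EBs, which kept the Rcor2 level given above, had Zscan4 sums of 2.60 and 10.4 CPM, a rise of 7.02 ± 0.65 (adjusted p = 9.49e-07), and Usp17le at 1.36 and 3.25 CPM, a rise of 6.05 ± 0.57. Of 8 members 5 were called, against 5.28% of all genes. Without its higher library, replicate 2, Zscan4a lost its call (3.65, adjusted p = 0.0656).

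RCOR12DKO EBs held the most. Their Zscan4 sums were 113, 121, 92.7 and 78.6 CPM, a rise of 11 ± 0.58 (adjusted p = 8.33e-12, edgeR). Usp17le was at 20.0, 17.5, 16.4 and 15.6 CPM and rose by 8.99 ± 0.53. Tcstv3 was at 6.53, 6.44, 4.68 and 3.83 CPM and rose by 6.55 ± 0.82. Zfp352 lay between 1.46 and 1.66 CPM in the 4 libraries, at least 135-fold above WT. These 7 of 8 members rose against 26.4% of all genes called. No mutant library overlapped WT for any of them, and the share of all genes without overlap was not counted. Trim43a, at 0.227 to 0.761 CPM, differed from WT by 0.18 ± 0.74. Set against RCOR2KO in a contrast added after the data had been seen, RCOR12DKO was higher in the Zscan4 sum by 3.98 ± 0.65 (adjusted p = 9.46e-05) and in 5 of 8 members, against 11.9% of all genes, and lower in Rcor2 itself (−3.86 ± 0.21). Without RCOR2KO replicate 1 the calls of Usp17le, Zscan4d and Zscan4f in that contrast were lost (adjusted p = 0.0327, 0.0159 and 0.0443).

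**Figure D2:**
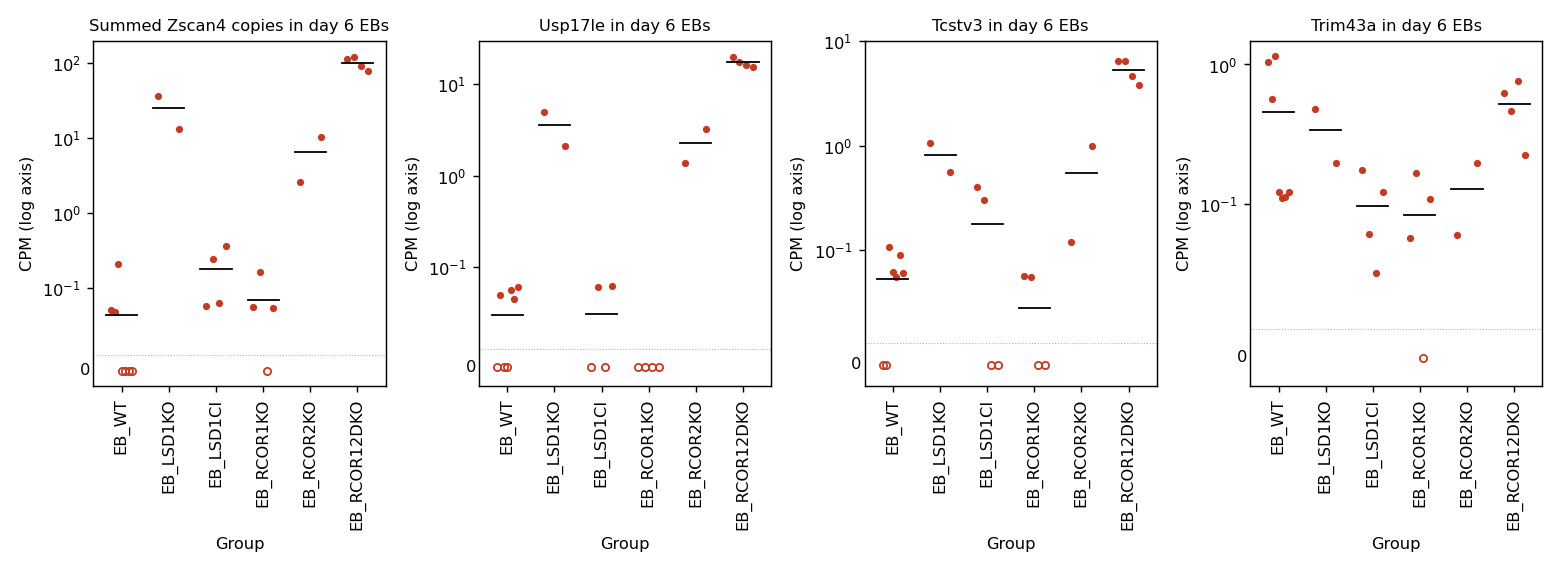
Level of members (CPM, log axis) in every EB library by genotype. Points are libraries, black bars are group means and open circles at the bottom are libraries with no count. The Zscan4 sum is at 78.6 to 121 CPM in RCOR12DKO and at or below 0.369 CPM in WT, LSD1CI and RCOR1KO.

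Of the other cleavage-stage genes 34 were tested in EBs. In LSD1KO 19 rose and 0 fell (median 5.09), in RCOR2KO 12 rose (median 3.50) and in RCOR12DKO 24 rose (median 7.23), while in LSD1CI and RCOR1KO edgeR called 0. Dux had no count in WT EBs and was at least 27.8-fold higher in LSD1KO and at least 162-fold higher in RCOR12DKO (adjusted p = 0.0009 and 9.18e-06). Dppa2 and Dppa4, which act upstream of Dux, rose by 5.09 and 3.34 in LSD1KO and by 6.83 and 5.49 in RCOR12DKO, and Tbx3 fell by 2.77 and 3.62. Of 29 genes that repress the state, 1 rose in LSD1KO EBs (Zfp809, by 1.13) besides the fall of Kdm1a. Smc1b, a meiotic cohesin in the list of Zscan4 partners at telomeres, rose by 2.07 in LSD1KO and by 5.86 in RCOR12DKO. Beside these results the naive ESC markers summed to 47.7 to 206 CPM in WT EBs, 569 to 628 in LSD1KO, 253 to 344 in RCOR2KO and 1170 to 1258 in RCOR12DKO EBs. Markers of the EB lineages moved too. In WT, LSD1KO, RCOR2KO and RCOR12DKO EBs in turn, the 4 endoderm markers summed to 288 to 501, 56.0 to 60.0, 88.6 to 104 and 61.6 to 77.9 CPM. The 5 mesoderm markers summed to 106 to 650, 395 to 509, 7.08 to 40.0 and 5.12 to 7.96 CPM. The 4 ectoderm markers summed to 28.3 to 175, 246 to 264, 276 to 281 and 159 to 185 CPM, and the 4 trophoblast markers to 36.7 to 494, 43.1 to 49.8, 14.6 to 20.4 and 29.3 to 38.2 CPM. Endoderm markers were thus lower in all 3 mutants and the summed mesoderm markers in both RCOR2 mutants. All 5 mesoderm markers had a mean of at least 1 CPM in WT EBs, but 3 of them did in each of the 3 mutants. The LSD1KO sum therefore hides mesoderm markers that were lower. The part of any of these lists in the result was not tested.

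In naive ESCs the members divided. Trim43a was at 43.8, 32.9, 40.0, 29.9, 37.5 and 30.7 CPM in the 6 LSD1KO libraries and at 0.108 to 0.172 CPM in WT 1 to 3, a rise of 7.90 ± 0.75 (adjusted p = 1.58e-10, edgeR). RCOR12DKO ESCs had 12.7, 14.1, 9.18 and 12.8 CPM and rose by 6.06 ± 0.49 (adjusted p = 1.25e-12). LSD1CI ESCs had 0, 0.263, 0 and 0.193 CPM, within the range of WT, and RCOR1KO ESCs 0.0248 to 0.18 CPM. LSD1KO exceeded LSD1CI by 8.40 ± 1.03 (adjusted p = 1.69e-07). Trim43a was the single member called of the 6 with counts to compare, against 8.8% of all genes. In RCOR2KO, at 0.312, 0.977, 0.156 and 1.38 CPM, it rose by 2.17 ± 0.56 (adjusted p = 0.00389), 1 of 7 members against 4.3% of all genes. This call was lost without replicate 2 or replicate 4 (1.99 and 1.62, adjusted p = 0.0176 and 0.0545) and when the groups compared were fitted alone (adjusted p = 0.0562).

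The level of Trim43a in LSD1KO ESCs was not the same in every experiment. LSD1KO ESCs in DMSO had 3.44 and 3.60 CPM, and those without DOX 8.82 and 4.20 CPM, below all 6 untreated libraries. The untreated libraries are among the 9 without contig counts, and the part of that alignment in the gap was not tested.

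Zscan4 moved less in ESCs than in EBs. LSD1KO sums were 7.13, 5.35, 4.06, 2.51, 3.50 and 1.75 CPM against 0.303 to 0.567 in WT 1 to 3, a rise of 3.23 ± 1.00 (adjusted p = 0.00919, edgeR) that was lost without the filter on low counts (adjusted p = 0.0130) or with the groups compared fitted alone (adjusted p = 0.0127). Called members were Trim43a, Zscan4c (3.58 ± 1.05) and Zscan4d (3.78 ± 1.03), 3 of the 6 with counts to compare, against 13.3% of all genes. Usp17le, at 0.586 to 1.23 CPM against 0 to 0.206 in WT 1 to 3, differed by 3.01 ± 1.00 (adjusted p = 0.0135). DESeq2 called 5.

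RCOR12DKO ESCs had Zscan4 sums of 10.7, 8.24, 7.83 and 7.83 CPM, above all 11 WT libraries (at most 3.42), and rose by 2.7 ± 0.69 (adjusted p = 0.00179). Tcstv3, at 0.639, 0.630, 0.108 and 0.516 CPM, rose by 3.04 ± 0.88, and Usp17le, at 1.04, 1.15, 0.837 and 0.659 CPM, by 2.33 ± 0.71. With Trim43a and 3 Zscan4 copies, 6 of 7 members rose against 18.3% of all genes. Each loss of 1 RCOR12DKO library took the call of Usp17le (adjusted p = 0.0101 to 0.0213), and all but that of replicate 3 took the call of Tcstv3. DESeq2 did not call Tcstv3 (adjusted p = 0.0231), nor did edgeR without the filter on low counts, and without WT 10, WT 11 and the MLL4 groups neither Tcstv3 nor Usp17le was called (adjusted p = 0.0118 and 0.0172).

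LSD1CI ESCs fell into separate levels, with Zscan4 sums of 0.84 and 0.864 CPM in replicates 1 and 3 and 9.72 and 8.01 in replicates 2 and 4. Usp17le was split the same way, at 0.0646 and 0.0576 against 2.16 and 1.21 CPM, and these are the pairs of libraries that stood closest over all genes. The sum differed from WT by 1.97 ± 0.70 (adjusted p = 0.0515). EdgeR and DESeq2 called 0 of 7 members (5 at an unadjusted p under 0.05), against 3.91% of all genes. In RCOR1KO both tools called 0 of 7 (0 at an unadjusted p under 0.05), against 0.0227% of all genes, and the sum differed by 0.16 ± 0.74. In RCOR2KO it differed by −1.06 ± 0.80.

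**Figure D3:**
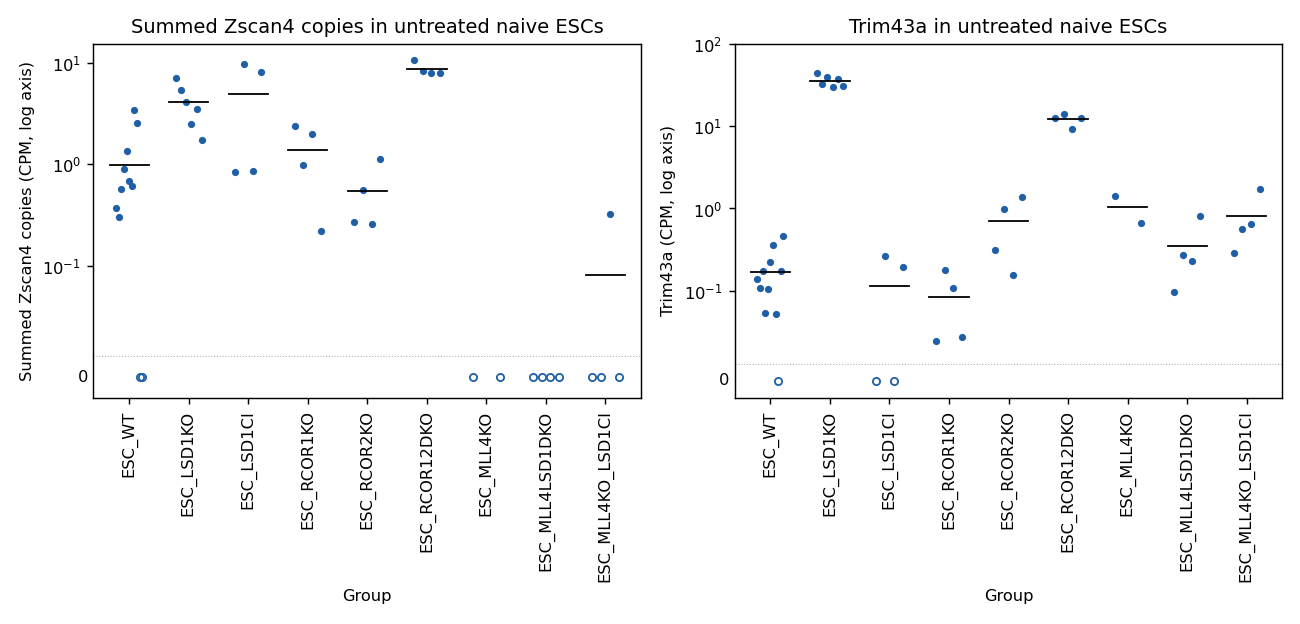
Zscan4 sum and Trim43a (CPM, log axes) in every naive ESC library by genotype. Points are libraries, black bars are group means and open circles at the bottom are libraries with no count. Trim43a is at 29.9 to 43.8 CPM in untreated LSD1KO and at or below 0.463 CPM in WT.

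The other cleavage-stage genes, 31 of them tested in ESCs, numbered 11 risen and 0 fallen in LSD1KO (median 1.72) and 11 risen and 1 fallen in RCOR12DKO (median 2.06). In LSD1CI 1 rose and 2 fell. The fallen genes were Trim43b and Trim43c, relatives of Trim43a, which fell by 4.33 and 7.82. Between LSD1KO and LSD1CI they differed by 7.37 and 9.32, so all 3 Trim43 genes were called there.

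The responses of ESCs and EBs to LSD1 loss were tested against each other. The Zscan4 sum rose more in EBs, by 5.76 ± 1.30 (adjusted p = 0.00142, edgeR), and Trim43a less, by −8.34 ± 1.12 (adjusted p = 4e-06). With Zscan4a, Zscan4c, Zscan4d and Zfp352 higher, 5 of the 7 members with counts to compare differed, against 12.9% of all genes. The Zfp352 difference was fitted against WT EBs without a count and is not a bound. Without LSD1KO EB replicate 1 the sum lost its call (4.83, adjusted p = 0.0247), and so did those 3 copies and Zfp352, while Trim43a kept it.

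ESCs without MLL4 were nearly free of members other than Trim43a. No Zscan4, Usp17le or Zfp352 count was found in 2 MLL4KO and 4 MLL4LSD1DKO libraries, and MLL4KO_LSD1CI had Zscan4 counts in 1 of 4 (0.321 CPM). Against WT 4 to 11 (mean 1.19 CPM) the sum was at least 16.1-fold lower in MLL4KO (adjusted p = 0.0202, not called) and at least 31.3-fold lower in MLL4LSD1DKO (adjusted p = 0.00116), and in MLL4KO_LSD1CI it fell by 3.87 ± 1.19 on the log2 scale (adjusted p = 0.00984). This last call was lost without replicate 1, 2 or 4 of MLL4KO_LSD1CI (adjusted p = 0.0346 to 0.0373) and under 6 other settings. Trim43a was higher in MLL4KO, at 1.42 and 0.671 CPM (2.56 ± 0.72, adjusted p = 0.00635), and in MLL4KO_LSD1CI, at 0.288, 0.570, 0.642 and 1.72 CPM (2.24 ± 0.62, adjusted p = 0.00378). Called members were 1 of 7 in MLL4KO (10.4% of all genes), 4 of 7 in MLL4LSD1DKO (12.3%) and 2 of 7 in MLL4KO_LSD1CI (13.2%). WT 10 and 11, of like depth to the MLL4 groups, also had no Zscan4 count, and against these 2 alone both Trim43a calls were lost (1.69 and 1.35, adjusted p = 0.320 and 0.351), as they were with only the groups compared (0.0629 and 0.0326). Among single libraries, leaving out either MLL4KO library or replicate 4 of MLL4KO_LSD1CI also ended the Trim43a call of that group, and leaving out any 1 MLL4LSD1DKO library ended the calls of Zscan4c, Zscan4d and Zscan4f. The Zscan4f call in MLL4KO_LSD1CI was lost without any 1 of its 4 libraries, and the Zscan4a call in MLL4LSD1DKO without each of 2. The loss of MLL4 and what sets those libraries apart cannot be told apart for Zscan4.

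Loss of LSD1 in cells without MLL4 did not bring the Trim43a of LSD1KO. MLL4LSD1DKO had 0.0961, 0.271, 0.230 and 0.809 CPM. The difference between the LSD1 response with and without MLL4 loss was −9.45 ± 1.05 (adjusted p = 3.48e-08, edgeR), 1 of the 6 members with counts to compare, against 8.79% of all genes. The untreated LSD1KO libraries and MLL4LSD1DKO differ in alignment, and the term for it was the basis of this difference. They also differ in depth, at 32.0 to 47.8 M against 17.4 to 22.1 M counts. LSD1KO ESCs in DMSO or without DOX had 3.44 to 8.82 CPM of Trim43a, below the untreated ones. The size of the difference therefore rests on the LSD1KO libraries used, and the part of the experiment in it was not tested.

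A485 asks whether the members depend on P300 and CBP activity in LSD1KO cells. Every member tested was lower with it in all 4 kinds of cells. Per the study, the dose was far lower in EBs than in ESCs, and it gives none for serum cells or EpiLCs. The sizes of the falls therefore cannot be compared between kinds of cells. In ESCs the Zscan4 sum was 9.02 and 7.24 CPM in DMSO and 0.579 and 0.543 in A485, a fall of 3.91 ± 0.24 (adjusted p = 6.36e-11, edgeR). Trim43a went from 3.44 and 3.60 to 0.602 and 0.543 CPM (−2.68 ± 0.30, adjusted p = 3.12e-07) and Usp17le from 1.34 and 0.968 to 0.223 and 0.292 CPM (−2.21 ± 0.54, adjusted p = 0.00161). All 6 members tested fell, against 17.6% of all genes called. Zfp352, not tested, had 18 counts in DMSO and 0 in A485, at least 6.11-fold lower. Without replicate 1 of either group Usp17le lost its call (adjusted p = 0.0122 and 0.0251). Naive ESC markers summed to 3814 to 3896 CPM in DMSO and 1450 to 1452 in A485, and their part was not tested.

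In EBs the sum was 22.3 and 23.1 CPM in LSD1KO with DMSO, 2.46 and 5.25 with A485, and 0 in both WT libraries. LSD1KO was at least 674-fold above WT (adjusted p = 3.01e-07, edgeR), 7 of 7 members rose against 18.8% of all genes, and Usp17le rose by 6.26 ± 0.73 and Tcstv3 by 5.69 ± 0.95. The Zfp352 call was lost without any 1 of these 4 libraries (adjusted p = 0.0106 to 0.0193). With A485 the sum fell by 2.45 ± 0.31 (adjusted p = 0.000142). All 7 members fell, against 13.8% of all genes: Usp17le went from 3.95 and 3.90 to 1.06 and 0.681 CPM, Tcstv3 from 1.59 and 1.15 to 0.112 and 0.200 CPM, and Zfp352 from 0.687 and 0.885 to 0 (at least 22.5-fold lower). Of these the calls of Tcstv3 (adjusted p = 0.0228 to 0.0755) and Zfp352 (0.0128 to 0.0275) were lost without any 1 of the 4 libraries, those of Usp17le and Zscan4c without each of 3 of them, that of Zscan4d without each of 2 and that of Zscan4a without 1. Naive ESC markers were higher with A485 here, at 1300 to 1322 CPM against 558 to 595 in DMSO. Mesoderm markers went from 289 to 337 CPM to 8.93 to 10.8 and ectoderm markers from 210 to 229 CPM to 76.2 to 108, and the part of these lists was not tested.

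In serum the sum was 33.6 and 30.3 CPM with A485, a log2 difference of −4.12 ± 0.82 from DMSO (adjusted p = 0.0175, edgeR, not called, 5.28e-08 by DESeq2). Zfp352 fell from 5.72 and 4.6 to 0.0462 and 0.178 CPM (−5.66 ± 0.56, adjusted p = 2.15e-05), Tcstv3 from 17.2 and 18.2 to 0.162 and 0.652 CPM (−5.60 ± 0.85), Trim43a to 0.0231 and 0 CPM (−5.46 ± 1.31) and Zscan4a by 5.58 ± 0.89. These 4 of 8 members fell, against 12.5% of all genes, and DESeq2 called 8 of 8. Usp17le kept 18.3 CPM in both A485 libraries, above WT serum cells, and its difference of −2.07 ± 0.46 was not called (adjusted p = 0.0194). The calls of Tcstv3, Trim43a and Zscan4a were lost without any 1 of the 4 libraries, and that of Zfp352 was not lost. With A485 the naive ESC markers summed to 460 to 479 CPM against 999 to 1121 in DMSO, and the 4 EpiLC markers to 168 to 176 against 758 to 789, and their part was not tested.

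EpiLCs had Zscan4 sums of 19.9 and 33.6 CPM in LSD1KO, 11.8 and 3.19 in WT, 5.90 and 6.14 in LSD1CI and 1.80 and 1.01 in LSD1KO with A485. The differences of 1.83 ± 0.66 for LSD1KO and −0.27 ± 0.68 for LSD1CI against WT were not called (adjusted p = 0.098 and 0.856, edgeR). Of 6 members edgeR called 0 in each. In LSD1KO 4 had an unadjusted p under 0.05 and DESeq2 called 2, against 9.49% of all genes. In LSD1CI both counts were 0, against 2.15%. A485 lowered the sum by 4.37 ± 0.79 (adjusted p = 0.00811), and 6 of 6 members fell against 17.6% of all genes, Usp17le from 2.27 and 2.61 to 0.535 and 0.642 CPM (−2.15 ± 0.46, adjusted p = 0.000951) and Tcstv3 from 0.644 and 0.847 to 0 and 0.0458 CPM. The call on the sum was lost without any 1 of the 4 libraries (adjusted p = 0.0203 to 0.0707), and those of Zscan4a, Zscan4f and Tcstv3 without 2 or 3 of them. EpiLC markers summed to 1474 to 1486 CPM in DMSO and 233 to 264 in A485, and naive ESC markers to 911 to 932 and 487 to 575, and their part was not tested. Against LSD1CI, in a contrast added after the data had been seen, LSD1KO was higher in Zscan4c and Zscan4d, 2 of 6 members against 3.98% of all genes. The Zscan4d call was lost without any 1 of these 4 libraries and that of Zscan4c without each of 2.

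**Figure D4:**
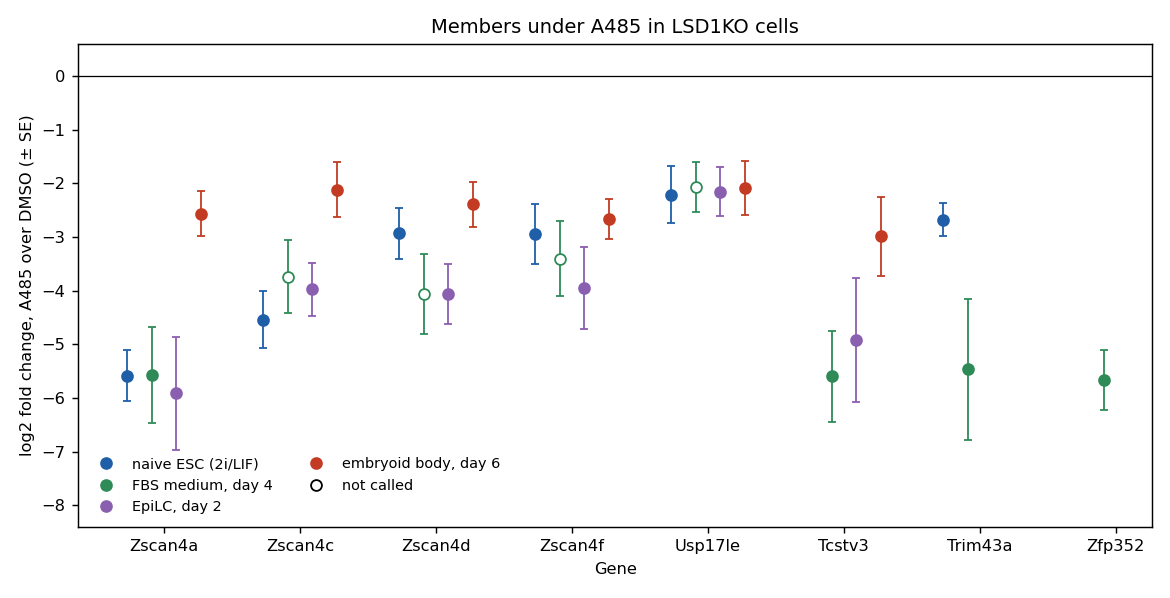
Log2 fold change of each member tested between A485 and DMSO in LSD1KO cells, with bars of 1 SE, for ESCs (blue), serum cells (green), EpiLCs (purple) and EBs (red). Zfp352 in EBs, without a count under A485, is not drawn. Filled points were called and open points were not. All points lie below 0. The Zscan4 sum, which is not drawn, differed by −3.91 in ESCs, −4.12 in serum, −4.37 in EpiLCs and −2.45 in EBs. The dose differed between ESCs and EBs.

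Of the other cleavage-stage genes tested under A485, 26 of 36 fell in serum, where 12.5% of all genes were called, 14 of 22 in ESCs (17.6%), 12 of 28 in EpiLCs (17.6%) and 7 of 28 in EBs (13.8%), and 0 rose. Dux fell by 3.10 ± 0.56 in serum (adjusted p = 0.00272, edgeR). Nelfa, a 2C-like state activator, fell by 1.01 there. Of the activators tested, Dux among them, 3 of 8 fell in serum and 2 of 7 in ESCs, and 0 rose. In EpiLCs 0 of 8 were called, and in EBs 2 of 8 rose and 1 fell.

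Returning LSD1 to LSD1KO ESCs separated Trim43a from the other members. In LSD1Res, DOX raised Kdm1a from 24.3 to 1607 CPM, and Trim43a went from 4.86, 4.49, 5.97 and 6.76 CPM without DOX to 1.12, 0.883, 0.614 and 0.800 with it. It fell by 2.65 ± 0.27 (adjusted p = 1.07e-05, edgeR), 1 of 8 members against 2.37% of all genes. The Zscan4 sum was 194, 232, 10.4 and 5.22 CPM without DOX and 132, 141, 21.0 and 10.8 with it, lower in replicates 1 and 2 and higher in 3 and 4, and differed by −0.48 ± 1.11. Usp17le (17, 19, 1.0 and 0.216 against 10.5, 11.7, 1.18 and 0.612 CPM), Zfp352 and Tcstv3 were split between replicates 1 and 2 and replicates 3 and 4 in the same way. Kdm1a differed between these pairs too, at 35.7, 38.1, 10.8 and 12.6 CPM without DOX and 2253, 2211, 980 and 986 with it. The part of its level in the split was not tested. Same-numbered libraries deviated together in this experiment (r from 0.550 to 0.715), and with the number as a block within each line Trim43a fell by 2.65 ± 0.24 and the sum differed by 0.09 ± 0.31.

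In DKO_LSD1 ESCs Trim43a was at 12.5, 10.2, 9.36 and 8.38 CPM without DOX and 14.1, 13.5, 19.5 and 19.9 with it (0.72 ± 0.24, adjusted p = 0.1). EdgeR and DESeq2 called 0 of 8 members there (1 at an unadjusted p under 0.05), against 0.332% of all genes. In LSD1KO ESCs without the construct both tools called 0 of 8 (1 at an unadjusted p under 0.05), against 0.0178% of all genes, and Trim43a was at 8.82 and 4.20 without and 5.02 and 2.99 CPM with DOX. The fall in LSD1Res exceeded that in LSD1KO by 1.87 ± 0.44, which was not called by edgeR (adjusted p = 0.075, 0 of 8 members, 1 at an unadjusted p under 0.05, 1 by DESeq2), against 0.0178% of all genes. With the block within each line it was 1.90 ± 0.37 and called (adjusted p = 0.00427), 1 of 8 members against 1.9% of all genes.

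**Figure D5:**
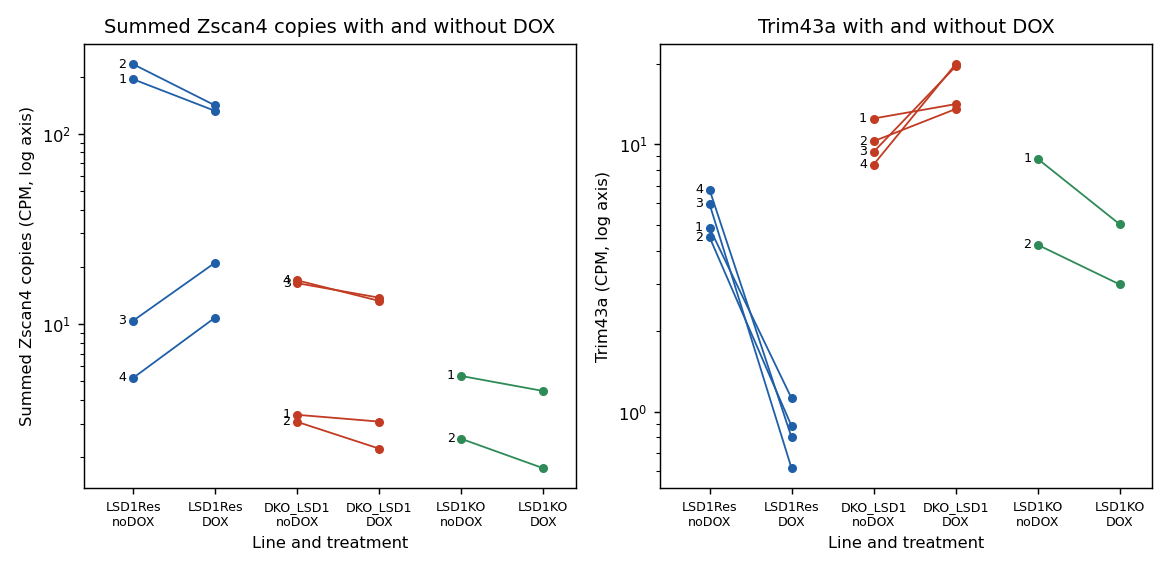
Zscan4 sum and Trim43a (CPM, log axis) without and with DOX in the LSD1Res, DKO_LSD1 and LSD1KO lines. Each line joins same-numbered libraries and carries their number. Trim43a is lower with DOX in all 4 LSD1Res pairs and higher in all 4 DKO_LSD1 pairs.

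The genes whose levels most resembled the Zscan4 sum were ranked by Pearson correlation within groups, on log2(CPM + 0.1) with the group mean removed, over all libraries and 17613 genes. Libraries share batches and groups, so these values only describe. The 10 with the highest r were Tmem92 (0.859), Gm5662 (0.857), Eif4a3l1 (0.846), Zscan4b (0.818), Gm8300 (0.814), Usp17le (0.813), Gm2016 (0.807), Gm5039 (0.803), Usp17la (0.799) and Gm6803 (0.795). The median over all genes was −0.03. Zfp352 ranked 25 (0.685) and Dux 30 (0.640). Without the LSD1Res libraries the same 10 had r between 0.697 and 0.793, while Zfp352 ranked 44 (0.502) and Dux 99 (0.435). Trim43a ranked 3454 with r = 0.125. Over the means of 34 groups, Spearman's rho with the Zscan4 sum was highest for Zscan4b (0.982), Usp17le (0.972), BC080695 (0.970), Usp17la (0.969) and Tmem92 (0.964), and was 0.932 for Zfp352 and 0.0031 for Trim43a. Tcstv3 held a place in this ranking but is not described, because 9 of the libraries could not count it.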

How the data were processed

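RNA-seq libraries of mouse cells were made after ribosomal RNA depletion with a stranded kit and sequenced in pairs. The deposited values were raw counts per gene: per the study's methods, the authors trimmed reads with Trim Galore, aligned them to mm9 with STAR 2.7.9a, removed duplicates with Picard 2.25.5 and counted genes with featureCounts in reverse-stranded mode. Even counts predominated (a median of 79.2% of low counts), so each mate of a pair was probably counted, and halved counts were fitted as an alternative. Reads of near-identical copies may have been split or dropped by this counting.

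Counts were fitted with edgeR 4.0.16 (limma 3.58.1) in R 4.3.3 on all genes plus a row for the summed Zscan4 copies: its filterByExpr filter with the group given, TMM factors, and the robust quasi-likelihood F test, two-sided, with Benjamini-Hochberg adjustment over all genes tested. A call needed an adjusted p under 0.01 with a log2 fold change beyond 1 either way, after the study. SE was taken as the log2 fold change over the root of its F. All groups of an experiment shared a fit, and fits that held any of the 9 libraries without contig counts had an alignment term. Folds against groups without a count were bounds from 3 counts over that group, which cover counting error only. In all 36 comparisons were made, 4 of them added after seeing the data. The test was checked on simulated data first. The changes were set in well-counted genes other than the members, with a fixed spread and no clones. That check therefore does not cover low counts or differences between clones. Alternatives were DESeq2 1.42.0, other size factors, no filter, the replicate number as a block, halved counts, Rn45s (8.06% to 24.9% of counts) left out, no alignment term, only the groups compared, and each library left out.

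Named genes were the members, from each list at most 4 called genes in order of adjusted p, the targeted genes, and the genes most like the Zscan4 sum. The members and lists were chosen with earlier results of these data known. Replicate numbers were taken to pair libraries only in the DOX experiment. There every same-numbered pair of LSD1Res and of DKO_LSD1 had a correlation of deviations between 0.596 and 0.715. Comparisons with 2 pairs gave a single value each, which cannot settle pairing. Outside the DOX lines these values ran from −0.116 to 0.600, and from 0.157 to 0.481 in serum. Promoter sequences were read from mm9 and, for the share of all promoters, from RefSeq. Other steps used Python 3.11.15 with SciPy 1.17.1, pandas 2.3.3, NumPy 2.4.6 and, for figures, matplotlib 3.10.9.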

Additional observations from a re-analysis of the deposited data

Results flagged for a closer look

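Single libraries stood apart from the rest of their group in 5 of 59 groups and genes checked, where chance flags about 1 in 20. The Zscan4 sum was 0.212 CPM in WT EB replicate 3, with the next library at 0.0517, 0.321 CPM in MLL4KO_LSD1CI replicate 3, with the others at 0, and 10.7 CPM in RCOR12DKO ESC replicate 1, with the next at 8.24. Usp17le was 1.23 CPM in LSD1KO ESC replicate 1, with the next at 0.692, and Zfp352 was 0.207 CPM in RCOR2KO ESC replicate 3, with the others at 0.

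The response to LSD1 loss differed between EBs and ESCs when tested as a difference of responses. On the log2 scale, EB minus ESC, it was 5.76 for the Zscan4 sum, 5.36 for Zscan4a, 5.68 for Zscan4c, 5.6 for Zscan4d, 7.67 for Zfp352 (a fitted value against WT EBs without a count) and −8.34 for Trim43a. The response of Trim43a to LSD1 loss with MLL4 loss, minus that without it, was −9.45.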

How the results depend on the processing

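For the Zscan4 sum, 221 of 246 values under the alternatives other than leaving out 1 library kept their direction and their side of the threshold. The other 25 follow, as log2 differences. In ESCs the LSD1KO rise lost its call without a filter on low counts (3.23) and with only the groups compared (3.24). RCOR1KO turned sign with the replicate block (−0.0042) and without WT 10, WT 11 and the MLL4 groups (−0.22). RCOR12DKO lost its call with the replicate block (2.53, adjusted p = 0.0528 by edgeR), and MLL4KO gained 1 by DESeq2 (−7.09). MLL4KO_LSD1CI lost its call with RLE size factors (−3.85), no filter (−3.88), the replicate block (−4.03), halved counts (−3.85), no alignment term (−3.59) and only the groups compared (−3.83). LSD1KO against LSD1CI turned sign without the alignment term (−0.20). In EBs RCOR1KO turned sign with the replicate block (−0.22). In serum DESeq2 called LSD1KO (4.12), LSD1CI (3.67) and A485 (−4.12), and A485 was also called with only the groups compared (−4.10). In EpiLCs LSD1KO was called without a filter (1.83), A485 lost its call with the replicate block (−4.44), and LSD1KO against LSD1CI was called without a filter (2.09) and with only the groups compared (2.10). In the DOX lines LSD1Res turned sign with the replicate block within each line (0.088), and the difference from LSD1KO did so with the replicate block (0.0092) and with that within each line (0.52). The cause was not tested.

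Leaving out each library in turn, 108 of 136 values of the sum were alike in this sense. The ranges with a change were −0.23 to 0.51 for RCOR1KO and −8.4 to −3.44 for MLL4KO_LSD1CI in ESCs, −0.29 to 0.95 for RCOR1KO in EBs, 3.40 to 5.62 for LSD1KO and 2.95 to 5.16 for LSD1CI in serum, 1.16 to 3.01 for LSD1KO, −0.94 to 0.91 for LSD1CI and −4.85 to −3.93 for A485 in EpiLCs, −0.98 to 0.15 for LSD1Res, −0.69 to 0.074 for DKO_LSD1, −1.30 to 0.19 for LSD1KO and −0.65 to 0.83 for their difference with DOX, and 4.83 to 6.33 for the difference between EBs and ESCs.

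Of the called single members, 598 of 639 values kept the call under the other alternatives and 244 of 334 without 1 library, and none turned sign. The replicate block took 21 of the 41 calls lost. Outside the DOX lines, with 3 or more pairs, no comparison had every same-numbered pair correlated above 0.1, so the numbers do not pair the libraries in those comparisons. For comparisons with 2 pairs, which include all in serum, in EpiLCs and with A485, pairing could not be settled. The count of all genes called moved by over 1.5 times in 45 of 277 settings, and with the block within each line it was 808 against 399 in LSD1Res, 236 against 56 in DKO_LSD1 and 320 against 3 for the difference of responses. LSD1KO against LSD1CI in ESCs was not run with only the groups compared, since the alignment term could not be estimated there. Groups of 2 libraries limit most of these tests, and levels below about 0.1 CPM rest on a few counts.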
